A study of Rattus norvegicus with 9 samples.

Results

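Apoe, Trem2, Spp1, Gpnmb and Cd9, genes used as markers of lipid-associated macrophages, were followed in alveolar macrophages of male Wistar rats after nitrogen mustard (NM). Members were the transcript rows whose RefSeq identifier maps to these symbols, 9 of 18197 rows and 5 of 17088 genes: 5 rows for Apoe and 1 row for each of the others. The 5 symbols were chosen by a proposal made with their measured group differences in these libraries in view, so the members' levels and differences are a description, with no test. The 9 libraries formed 3 groups of 3: rats given PBS into the trachea, and rats given NM (mechlorethamine hydrochloride, 0.125 mg/kg) into the trachea with cells taken 1 d or 28 d later. Cells were collected by massaging the lungs, and the labels name no genotype; what all rats shared was the strain, the sex and an instillation into the trachea under anesthesia. The submitters call the 3 replicates of a group biological. Whether a library held 1 rat or several, how old the rats were and on which day PBS cells were taken is not stated in the labels.

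Alveolar macrophages clear inhaled particles and surfactant from the air spaces, and they become foam cells when lipid uptake exceeds export. Lipid-associated macrophages, described in fat, plaque and fibrotic lung, are marked by a lipid-sensing programme. In it TREM2 is a surface receptor for lipids and lipoproteins that signals through the adaptor TYROBP, and APOE is a secreted apolipoprotein that binds TREM2 and carries exported cholesterol. Osteopontin, the product of Spp1, is a secreted matrix protein that binds integrins and CD44. GPNMB is a membrane glycoprotein of lysosomes and the cell surface whose gene is a target of MITF and related factors, and CD9 is a tetraspanin that organises integrins and other membrane proteins.

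Read depth was not given, but ratios of low values put the libraries at relative depths of 1 to 2.58, with PBS replicate 0 the deepest. Levels are FPKM, fragments scaled by transcript length and by the mapped fragments of the library, so they can be compared between genes. Of 20 resident alveolar macrophage markers 16 were in the file, and their summed level was 2939 to 5349 FPKM in PBS, 2540 to 2959 at day 1 and 2862 to 3170 at day 28. Cd68 and Plet1 led them, but Marco, a defining scavenger receptor of these cells, was listed at 0 in every library. Markers of other cells differed between groups. The sum of 17 monocyte and recruited macrophage markers was 231 to 275 FPKM in PBS, 401 to 509 at day 1 and 276 to 390 at day 28, with Ccr2 listed at 0 in all PBS libraries. The sum of 15 neutrophil markers was 304 to 484, 742 to 1112 and 605 to 1070 FPKM, and that of 21 alveolar epithelial markers 255 to 420, 1062 to 3122 and 308 to 412 FPKM. The sum of 9 airway epithelial markers ran from 1548 to 8489 FPKM in PBS, from 1540 to 3652 at day 1 and from 915 to 1456 at day 28. Dendritic cell markers summed to 9.36 to 14.0 FPKM in PBS, 79.6 to 88.2 at day 1 and 18.3 to 26.2 at day 28, T cell markers to 23.0 to 34.4, 63.8 to 73.6 and 29.9 to 40.2 FPKM, and natural killer cell markers to 5.88 to 6.06, 38.4 to 48.6 and 9.03 to 20.4 FPKM. Over the 9 libraries the sums were 10.8 to 24.6 FPKM for fibroblast and smooth muscle, 21.4 to 58.3 for endothelial and 0.285 to 7.91 for B cell markers. They were 10.6 to 120.7 for platelet and 124 to 559 FPKM for erythroid markers. Single genes led both of these sums. Mean Pf4 was 37.5, 28.3 and 83.5 FPKM in PBS, at day 1 and at day 28, and mean Hbb 318, 162 and 152 FPKM. In these bulk libraries a change in the number of cells of a type and a change of RNA per cell cannot be told apart, and the part of these cells in the members' differences was not tested.

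Trem2, the receptor, was the member whose libraries differed most within groups. It stood at 39.9, 144 and 256 FPKM in the PBS libraries (replicates 0, 1 and 2), at 17.0, 136 and 48.1 FPKM at day 1, and at 529, 158 and 540 FPKM at day 28. The day 28 libraries lay above all day 1 libraries, while PBS overlapped both NM groups. Day 28 replicates 0 and 2 exceeded every other library, and day 28 replicate 1 (158 FPKM) lay between PBS replicates 1 and 2. Means were 146 ± 108 FPKM in PBS, 67.2 ± 61.9 at day 1 and 409 ± 218 at day 28 (SD, n = 3 each), so the order was day 1, PBS, day 28, with neither neighbouring pair separated. The fitted difference, on log2(FPKM + 1), was -1.21 ± 0.75 (SE) for day 1 minus PBS, 1.64 ± 0.75 for day 28 minus PBS and 2.85 ± 0.75 for day 28 minus day 1. The within-group SD of Trem2 was 1.29 on the log2 scale, against a median of 0.27 over the 9876 genes tested, and 0.162% of genes had a larger one.

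Apoe, the secreted ligand, separated all 3 groups. Its summed level was 28.7, 12.1 and 19.1 FPKM in the PBS libraries, 72.5, 151 and 47.8 FPKM at day 1, and 676, 470 and 553 FPKM at day 28. Every day 1 library was above every PBS library, and every day 28 library above every day 1 library. Mean levels were 19.96 ± 8.34, 90.3 ± 53.7 and 566 ± 103 FPKM (SD, n = 3), a ratio of 4.53 between day 1 and PBS and of 28.4 between day 28 and PBS. The fitted log2 differences were 2.04 ± 0.37 (SE) for day 1 minus PBS, 4.82 ± 0.37 for day 28 minus PBS and 2.78 ± 0.37 for day 28 minus day 1. Of 9876 genes tested, 1 had a larger difference in size between day 28 and PBS. Ranked by level, Apoe moved from places 3430 to 5814 among the 17088 genes in PBS to places 163 to 194 at day 28.

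**Figure D1:**
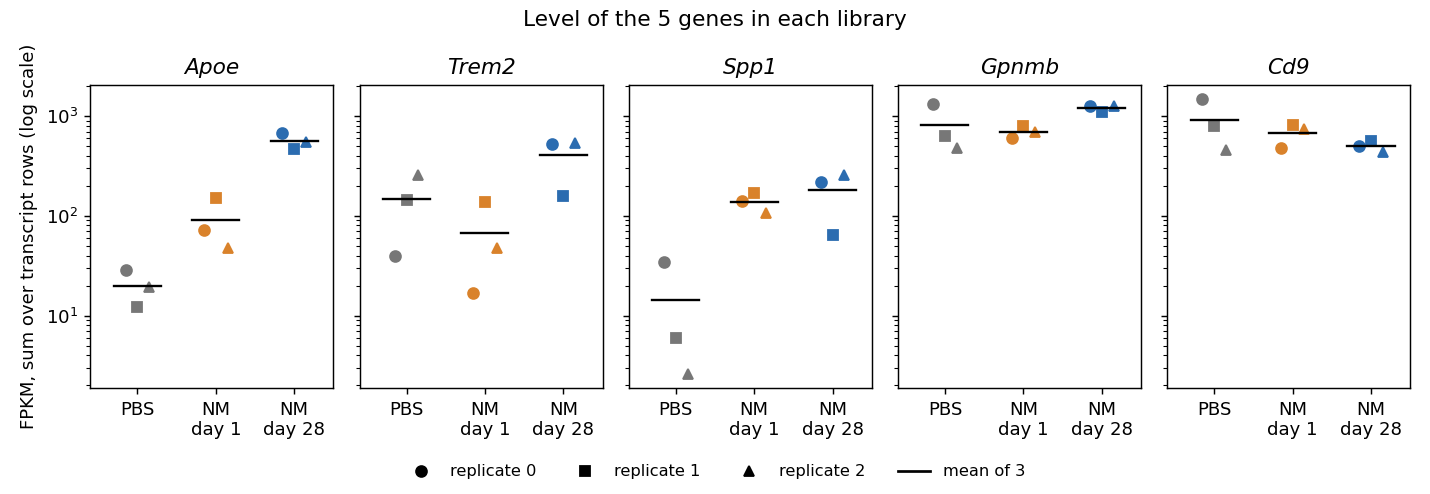
FPKM of Apoe, Trem2, Spp1, Gpnmb and Cd9 (log scale, sum over transcript rows) in each library by group, with symbols for replicates 0, 1 and 2 and a line for the mean of 3. Apoe separates the 3 groups, Spp1 separates PBS from both NM groups, and for Trem2, Gpnmb and Cd9 the PBS values overlap those of both NM groups.

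Of the 5 Apoe transcript rows, NM_138828 separated the 3 groups in the same order as the sum, and the other rows did not. NM_138828 held 7.12, 0.00597 and 19.1 FPKM in the PBS libraries, 36.8, 144 and 24.9 FPKM at day 1, and 635, 194 and 532 FPKM at day 28. NM_001270684 held 21.5, 12.05 and 0.0627 FPKM in PBS, 35.7, 0.0304 and 22.9 FPKM at day 1, and 40.5, 271 and 0.0207 FPKM at day 28. The share of the gene's sum assigned to NM_138828 therefore ran from 0.0495% to 99.7% within PBS, from 50.8% to 95.2% within day 1 and from 41.3% to 96.2% within day 28. NM_001270681 reached 7.14 FPKM in day 1 replicate 1, and 5.45 and 21.2 FPKM in day 28 replicates 1 and 2, and was listed at 0 in the other libraries. NM_001270683 stayed under 0.003 FPKM and NM_001270682 was listed at 0 throughout. Replicates of 1 group thus gave nearly all of Apoe to different rows, while the sums stayed within 3.15-fold of each other in each group. Because the shares moved in this way, the order of NM_138828 is given beside that of the sum and not as a separate result. How reads were divided among these transcripts is not stated in the labels. With transcript rows fitted singly, the Apoe row of the highest mean had a log2 difference of 3.25 at day 1 and 6.21 at day 28 against PBS.

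**Figure D2:**
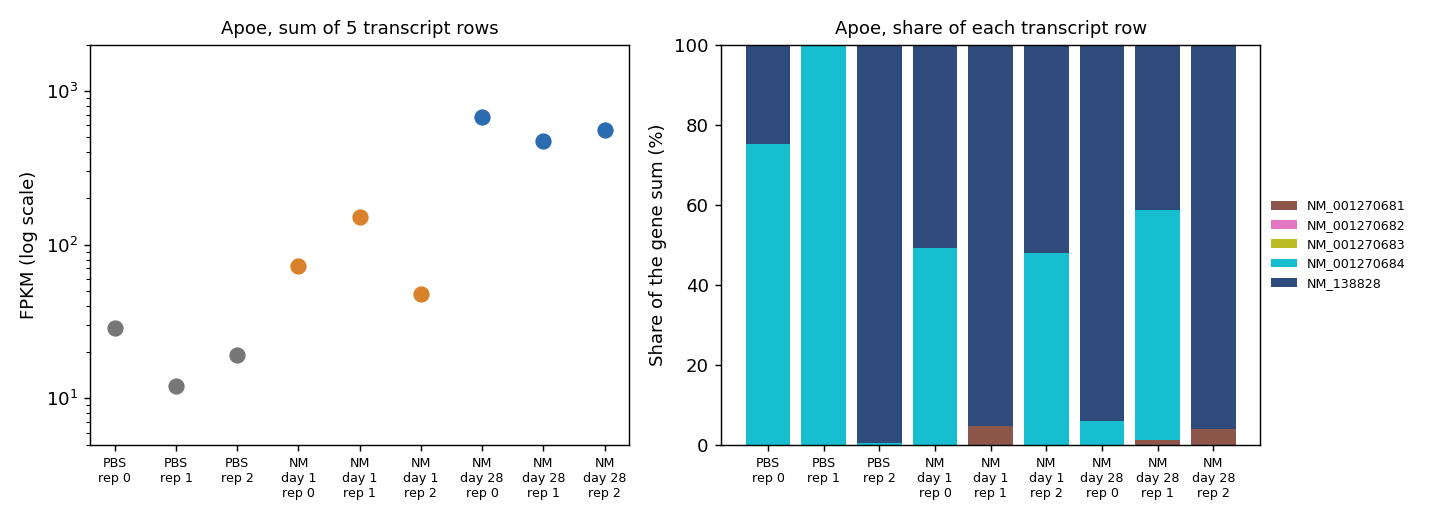
Left, summed Apoe FPKM in each library (log scale, 1 point per library). Right, the share of that sum in each of the 5 Apoe transcript rows (stacked bars, %), which passes between NM_138828 and NM_001270684 among libraries of the same group, from 0.0495% to 99.7% for NM_138828 within PBS.

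Spp1 separated PBS from both NM groups. It stood at 34.6, 5.92 and 2.58 FPKM in the PBS libraries, at 139, 171 and 107 FPKM at day 1, and at 218, 64.2 and 259 FPKM at day 28. Every NM library was above every PBS library, and the day 1 and day 28 libraries overlapped because day 28 replicate 1 lay below all 3 day 1 libraries. Mean levels were 14.4 ± 17.6, 139 ± 32.2 and 180 ± 103 FPKM (SD, n = 3). The fitted log2 differences were 3.84 ± 0.69 (SE) for day 1 minus PBS, 4.01 ± 0.69 for day 28 minus PBS and 0.17 ± 0.69 for day 28 minus day 1. PBS was the most variable group, with its highest library 13.4-fold above its lowest. Without PBS replicate 0 the differences from PBS were 4.79 and 4.96.

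Gpnmb was among the more abundant transcripts in every group and differed little between PBS and day 1. Its levels were 1325, 633 and 475 FPKM in the PBS libraries, 598, 795 and 700 FPKM at day 1, and 1268, 1102 and 1275 FPKM at day 28. All day 28 libraries were above all day 1 libraries, but PBS replicate 0 was above every other library and so PBS overlapped both NM groups. Mean levels were 811 ± 452, 698 ± 98.5 and 1215 ± 97.8 FPKM (SD, n = 3), with fitted log2 differences of -0.09 ± 0.30 (SE) for day 1 minus PBS, 0.72 ± 0.30 for day 28 minus PBS and 0.81 ± 0.30 for day 28 minus day 1. The sign of the first of these changed to 0.23 after quantile normalisation, to 0.34 without PBS replicate 0 and to 0.02 without day 1 replicate 0. Without PBS replicate 0 the day 28 difference from PBS was 1.14.

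Cd9, the tetraspanin, had its highest mean in PBS and its lowest at day 28, and its groups overlapped in every comparison. It stood at 1495, 794 and 458 FPKM in the PBS libraries, at 474, 823 and 740 FPKM at day 1, and at 496, 558 and 436 FPKM at day 28. PBS replicate 0 held the highest value of the 9 libraries, and PBS replicate 2 lay within the range of day 28. Mean levels were 916 ± 529, 679 ± 182 and 497 ± 60.8 FPKM (SD, n = 3). The fitted log2 differences were -0.30 ± 0.35 (SE) for day 1 minus PBS, -0.72 ± 0.35 for day 28 minus PBS and -0.42 ± 0.35 for day 28 minus day 1. Without PBS replicate 0 the first of these was 0.13, and the second was -0.29.

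**Figure D3:**
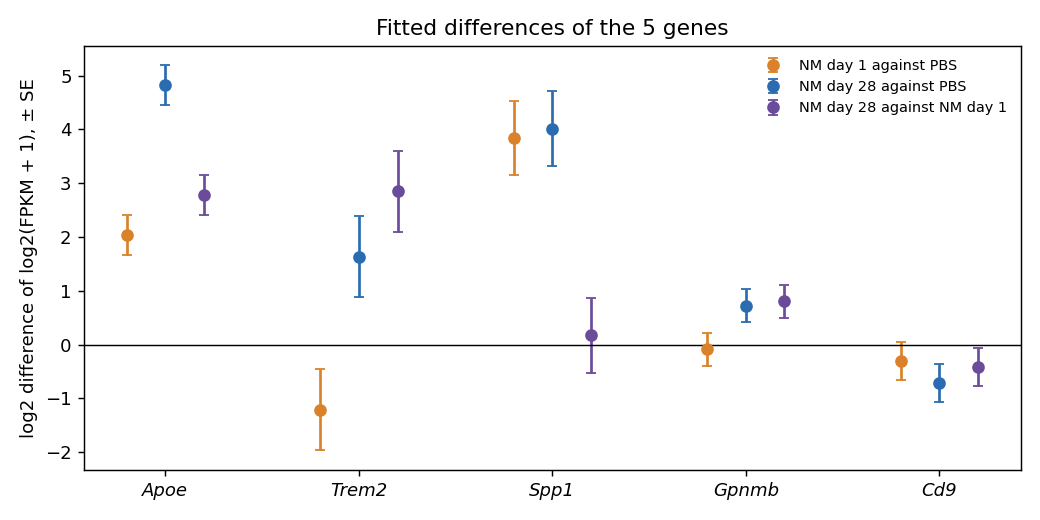
Fitted differences of log2(FPKM + 1) for each gene in the 3 comparisons (points, with SE from the fit as bars). The Apoe difference grows from 2.04 at day 1 to 4.82 at day 28, the Spp1 differences are 3.84 and 4.01, and Trem2 stands at -1.21 and 1.64.

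Set side by side, the 5 genes followed different courses. At day 1, 2 of 5 members (Apoe and Spp1) were past the threshold of an adjusted p under 0.05 by limma and higher than PBS, where 5.3% of the 9876 genes tested were called higher and 4.59% lower. At day 28, 2 of 5 (again Apoe and Spp1) were past it and higher than PBS, where 3.07% of genes were called higher and 3.97% lower. Between day 28 and day 1, 2 of 5 (Apoe and Trem2) were past it and higher at day 28, where 4.76% of genes were called higher and 6.89% lower. No member was past it and lower. These counts describe genes proposed with these contrasts in view, and both NM groups were set against the same PBS libraries. With transcript rows fitted singly Apoe was not past it at day 1 nor between the NM groups, where Trem2 was not either (0 members). Trem2 also fell short between the NM groups without a filter, with robust eBayes, and without day 1 replicate 0 or 2 or day 28 replicate 0 or 2. Gpnmb was past it at day 28 against PBS after quantile normalisation and without PBS replicate 0, and between the NM groups in these fits and in the fit of the 6 libraries alone. Cd9 was past it, lower at day 28 than in PBS, without PBS replicate 2.

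Single libraries moved several members at once, in unlike directions. In PBS replicate 0, the deepest library, Apoe, Spp1, Gpnmb and Cd9 were at their highest of the PBS group and Trem2 at its lowest, with log2 values differing from the mean of the other 2 PBS libraries by 0.87, 2.84, 1.27 and 1.31, and for Trem2 by -2.24. The same library had the largest sum of resident macrophage markers of the 9 (5349 FPKM) and the smallest sum of airway epithelial markers in PBS (1548 FPKM). In day 28 replicate 1, Trem2 and Spp1 stood at -1.75 and -1.87 on the log2 scale relative to the other day 28 libraries, while Apoe, Gpnmb and Cd9 stood at -0.38, -0.21 and 0.26. The neutrophil marker S100a9 was also lowest there, at 78.3 FPKM against 320 and 346 FPKM in day 28 replicates 0 and 2. The cytokine gene Il1b stood at 40.4 FPKM there, against 169 and 136 FPKM, and the leukocyte phosphatase gene Ptprc at 213 FPKM, against 109 and 97.9 FPKM; these 3 genes were chosen after their values were seen. Day 1 replicate 1 had the highest value of its group for all 5 members. The part of cell composition and depth in these library differences was not tested. Without day 28 replicate 1 the Trem2 difference between day 28 and PBS was 2.22.

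**Figure D4:**
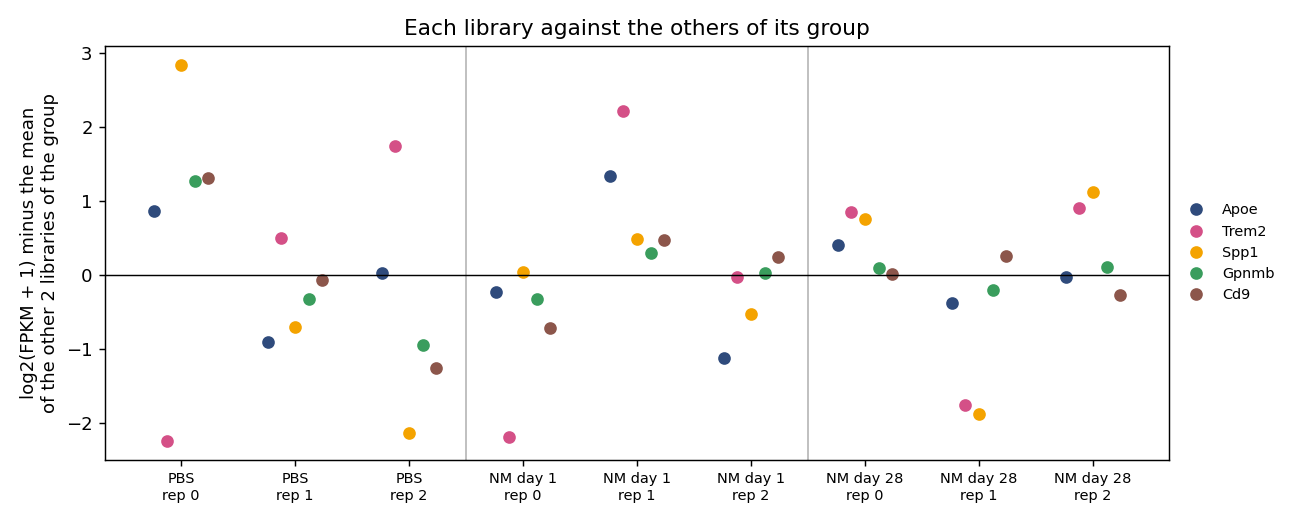
log2(FPKM + 1) of each gene in each library minus the mean of the other 2 libraries of its group (points coloured by gene, grey lines between groups). PBS replicate 0 lies high for Spp1 (2.84) and low for Trem2 (-2.24), and day 28 replicate 1 lies low for Spp1 (-1.87) and Trem2 (-1.75).

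Likeness between genes was measured as the root mean square distance of log2(FPKM + 1), centred on each gene's mean, over the 9 libraries, among genes with a symbol and a mean of at least 5 FPKM. The distance is not scaled by a gene's own spread, so each is given beside the median distance from that member to all candidates. Of the member pairs, Gpnmb and Cd9 had the smallest distance (0.66), which was above the medians of both (0.59 and 0.61), and Trem2 and Spp1 the largest (2.60). Apoe and Spp1 lay 1.36 apart, below their medians (2.07 and 2.14). Nearest to Spp1 were Pla2g7, a secreted phospholipase (0.73), Mmp12, the macrophage elastase (0.76), and Il1b (0.85), against a median distance of 2.14. Nearest to Apoe were the aldo-keto reductase Akr1b8 (0.96), Mmp12 (0.97) and the inhibitory receptor gene Lilrb4 (1.01; median 2.07). Gpnmb lay close to Mpeg1, which encodes a pore-forming protein of macrophages (0.15), Plbd1 (0.19) and the lysosomal protease gene Ctsb (0.24; median 0.59). Cd9 lay close to Naaa, a lysosomal amidase gene (0.17), B2m (0.20) and Arl6ip1 (0.20; median 0.61). Nearest to Trem2 were Riiad1 (0.87), C3h11orf91 (0.95) and the ectoenzyme gene Enpp1 (0.98), against a median of 1.596. These distances are descriptions over 9 libraries that share their groups and depth.

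Windows of 250 bases before the transcription start were read from RefSeq (GRCr8), which held an entry for all 5 genes and 3 entries for Apoe. The windows of Trem2, Spp1 and Gpnmb are shown because Trem2 and Spp1 were low together in day 28 replicate 1 and stood at opposite ends of the PBS group in PBS replicate 0, and because Gpnmb is a known MITF target. Capitals mark matches on either strand to TCANNTGA (the E-box form bound by MITF and TFEB), TGANTCA (AP-1), AGGTCA (a nuclear receptor half-site) and GAGGAA (the core bound by PU.1), motifs chosen after the sequences had been seen. The windows lie at chr9:20151780-20152029 (minus strand, Trem2), chr14:5619805-5620054 (minus strand, Spp1) and chr4:79340878-79341127 (plus strand, Gpnmb).
Trem2: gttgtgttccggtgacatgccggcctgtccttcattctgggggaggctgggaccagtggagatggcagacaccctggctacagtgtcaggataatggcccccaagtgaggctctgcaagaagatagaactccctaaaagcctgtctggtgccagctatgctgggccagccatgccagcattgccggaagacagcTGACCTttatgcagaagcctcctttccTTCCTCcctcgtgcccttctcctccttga
Spp1: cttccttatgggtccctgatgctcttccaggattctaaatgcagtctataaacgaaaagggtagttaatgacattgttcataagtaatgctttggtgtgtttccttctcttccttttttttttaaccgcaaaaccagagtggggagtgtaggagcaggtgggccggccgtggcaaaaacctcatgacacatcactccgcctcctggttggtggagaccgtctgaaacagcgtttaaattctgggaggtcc
Gpnmb: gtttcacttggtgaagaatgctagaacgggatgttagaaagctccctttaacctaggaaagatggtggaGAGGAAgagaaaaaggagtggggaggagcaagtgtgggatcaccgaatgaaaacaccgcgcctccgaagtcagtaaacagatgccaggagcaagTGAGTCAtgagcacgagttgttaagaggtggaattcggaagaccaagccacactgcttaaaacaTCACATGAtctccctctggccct

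The Gpnmb window held TCACATGA, 23 to 16 bases before the start, and TGAGTCA, 87 to 81 bases before it. No other member window held either of these 2 motifs, which occurred in 6.65% and 6.34% of 33469 rat windows of the same length. The Trem2 window held the half-site in reverse 56 to 51 bases before the start (14.1% of windows hold it) and GAGGAA in reverse 29 to 24 bases before it. GAGGAA was also found in the Gpnmb and Cd9 windows and in 1 of the 3 Apoe windows, and 23.3% of all windows hold it. The Spp1 window matched none of the 4 motifs. These matches are letters in a window and were not measured as sites.

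The genes around the members were read from 6 lists, of which 122 genes besides the members were tested. In the 6 lists together 16 genes were higher and 10 lower at day 1 (13.1% and 8.20%) by limma at an adjusted p under 0.05. At day 28, 17 were higher and 6 lower (13.9% and 4.92%). Over all genes tested, 5.3% were called higher and 4.59% lower at day 1, and 3.07% and 3.97% at day 28. Between day 28 and day 1, 9 listed genes were higher and 7 lower (7.38% and 5.74%), against 4.76% and 6.89% over all genes. The listed genes had median log2 fold changes of -0.19 at day 1 and -0.06 at day 28, against -0.04 over all 9876 genes in both comparisons. Lists share 9 genes, and they were written with earlier results of these data known.

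Among the genes of TREM2 signalling, most calls against PBS were of lower genes. Of 16 tested, 1 was higher and 3 lower at day 1 (median log2 fold change -0.19). At day 28, 0 were higher and 2 lower (-0.07). There 5 of 16 were at an unadjusted p under 0.05 by limma, as were 2355 of all 9876 genes. Between day 28 and day 1, 2 were higher and 0 lower (-0.15). Tyrobp, the adaptor that TREM2 signals through, did not pass in any comparison: it stood at 4934 ± 732 FPKM in PBS, 3045 ± 312 at day 1 and 5112 ± 617 at day 28 (SD, n = 3; adjusted p = 0.0835 and 0.921 against PBS, and 0.0585 between the NM groups, by limma). Lat2, an adaptor of immune receptors, rose at day 1 (2.37 ± 0.37 SE, adjusted p = 0.00244 by limma), from 0.824 ± 0.759 to 7.90 ± 1.77 FPKM (SD). At day 1 the kinase genes Syk (-0.57) and Akt1 (-0.53) and the phosphatase gene Ptpn6 (-0.60) fell, and Ptpn6 (-0.79) and Akt1 (-0.73) were lower than PBS at day 28. Hcst, an alternative adaptor (1.09), and Treml1, a related receptor of platelets (1.92), were higher at day 28 than at day 1. The 3 day 1 falls missed the threshold after quantile normalisation and with PBS replicate 0 or 1 or any day 1 library left out, Syk and Akt1 also without PBS replicate 2, Ptpn6 and Akt1 without day 28 replicate 0, and Ptpn6 without day 28 replicate 2 (adjusted p up to 0.176, for Akt1). Ptpn6 and Akt1 at day 1 were also lost with median-of-ratios scaling, and Akt1 with an added 0.1, the filter of 5 FPKM, single transcript rows and robust eBayes. Ptpn6 at day 28 was lost without PBS replicate 1 (0.0662), and Akt1 without PBS replicate 0 or 1 or day 28 replicate 0 (up to 0.0598). Hcst and Treml1 were lost without day 1 replicate 0 or day 28 replicate 0 or 2, Hcst without day 1 replicate 1 and Treml1 without day 1 replicate 2 (up to 0.0728 and 0.101), and Treml1 also without a filter (0.0564).

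Around Apoe, the called genes of lipid receptors and export were all lower than PBS at day 1. Of 20 tested, 0 were higher and 4 lower at day 1 (median -0.55). There 11 were at an unadjusted p under 0.05 by limma, as were 2502 of all 9876 genes. At day 28, 2 were higher and 1 lower (-0.25), and between day 28 and day 1, 3 were higher and 0 lower (0.31). At day 1 the oxysterol receptor genes Nr1h2 (-0.98 ± 0.17 SE, adjusted p = 0.00416 by limma) and Nr1h3 (-0.73), the sorting receptor gene Sort1 (-0.99) and the cholesterol exporter gene Abcg1 (-0.77) fell. At day 28 Abcg1 was still lower than PBS, at 249 ± 13.5 against 467 ± 48.7 FPKM (SD, n = 3; -0.90, adjusted p = 0.0145), while Apoe stood at its highest. Scarb1, a receptor for high density lipoprotein, and Pltp, which transfers phospholipid, were higher at day 28 than in PBS (0.87 and 0.88) and than at day 1 (0.96 and 1.44), and Npc1 was higher than at day 1 (0.69). Abca1, which exports cholesterol to apolipoproteins, missed the threshold (102 ± 27.8, 56.8 ± 33.8 and 91.7 ± 31.6 FPKM; adjusted p = 0.108 and 0.816 against PBS). Nr1h3 and Abcg1 at day 1 were lost after quantile normalisation and without PBS replicate 0 or 1 or day 1 replicate 0 or 2, and Nr1h3 also without day 1 replicate 1, without a filter, with median-of-ratios scaling and on single transcript rows (adjusted p up to 0.137 and 0.13). At day 28 against PBS, Abcg1, Scarb1 and Pltp were lost without PBS replicate 1 or day 28 replicate 2, Scarb1 and Pltp without day 28 replicate 0, and Pltp without PBS replicate 2 or day 1 replicate 1 or 2 (up to 0.163, for Pltp). Abcg1 at day 28 was also lost after quantile normalisation (0.0573), and Pltp without a filter, on single transcript rows and in the fit of the 6 libraries (up to 0.093). Npc1 missed the threshold without any 1 of the libraries except day 28 replicate 2 (up to 0.18), and with an added 0.1, either other filter, either other scaling, single transcript rows or the 6 libraries alone (up to 0.0907).

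Around Spp1, the genes called higher at day 1 were a kinase and 2 proteases, and none of the osteopontin receptor genes tested was among them. Of 22 listed genes 18 were in the data and 11 were tested. Of these 11, 3 were higher and 0 lower at day 1 (median -0.13), and 4 higher and 1 lower at day 28 (0.54). Between day 28 and day 1, 1 was higher and 0 lower (0.18). Mmp12, whose product cleaves elastin, went from 1.14 ± 0.641 FPKM in PBS to 20.3 ± 11.3 at day 1 and 27.2 ± 8.15 at day 28 (SD, n = 3; adjusted p = 0.000253 and 0.000354 by limma). Fam20c, the kinase that phosphorylates osteopontin, went from 0.845 ± 0.475 to 16.9 ± 3.60 and 9.15 ± 0.809 FPKM (adjusted p = 8.55e-06 and 0.000354). Mmp7 rose at day 1 (1.79), from 0.143 ± 0.248 to 3.03 ± 1.18 FPKM, but missed the threshold without day 1 replicate 0 or 1 (adjusted p up to 0.0852 by limma). Itga5 was higher at day 28 than at day 1 (0.72, adjusted p = 0.00818) and than in PBS (0.54), though the latter was lost without any 1 of the libraries except day 1 replicate 1 (adjusted p up to 0.15, without PBS replicate 1) and in the fit of the 6 libraries (0.073). Itgb5, an integrin subunit that pairs with the alpha V chain, fell from 33.1 ± 7.16 FPKM in PBS to 7.50 ± 5.76 at day 28 (-2.23, adjusted p = 0.00722). Cd44 did not pass (326 ± 39.8, 242 ± 15.5 and 283 ± 84.5 FPKM; adjusted p = 0.212 and 0.518), and Itgav was not analysed here.

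Around Gpnmb, neither Mitf nor Tfeb, the factor genes followed here, was called higher. Of 24 tested, 2 were higher and 3 lower at day 1 (median -0.18), 2 higher and 0 lower at day 28 (0.14), and 1 higher and 2 lower between day 28 and day 1 (0.31). Mitf stood at 54.0 ± 7.66, 44.1 ± 3.96 and 62.5 ± 2.48 FPKM (SD, n = 3; adjusted p = 0.277 and 0.434 against PBS by limma). Tfeb fell at day 1, from 136 ± 23.6 to 62.8 ± 10.9 FPKM (-1.11, adjusted p = 0.0157), a call that ended without PBS replicate 1 or day 1 replicate 0 (up to 0.0975), and stood at 109 ± 34.4 FPKM at day 28. Sdc4, a heparan sulfate proteoglycan that binds GPNMB, rose from 6.95 ± 1.26 to 44.7 ± 14.2 FPKM at day 1 and was lower again at day 28 (12.4 ± 3.62; -1.76 between the NM groups, adjusted p = 0.00194). Ctsl did likewise, with 1.75 at day 1 and -1.42 between the NM groups. Ctsk, which encodes a collagen-degrading protease and is a known target of MITF, was at 9.66 ± 2.67, 12.2 ± 4.38 and 36.5 ± 8.69 FPKM, higher at day 28 than in PBS (1.82, adjusted p = 0.00297) and than at day 1 (1.53, adjusted p = 0.00503).

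Among tetraspanins and their partners, calls went in both directions. Of 21 tested, 2 were higher and 0 lower at day 1 (median -0.22), 2 higher and 2 lower at day 28 (-0.20), and 1 higher and 3 lower between day 28 and day 1 (-0.04). Tspan8, a tetraspanin of epithelia, was at 1.78 ± 1.27 FPKM in PBS, 7.17 ± 3.33 at day 1 and 1.18 ± 0.0469 at day 28 (adjusted p = 0.0225 at day 1 and 0.0085 between the NM groups, by limma). Tspan5 was higher at day 28 than at day 1 (1.24, adjusted p = 0.00685) and than in PBS (0.93), and Tspan13 was higher at day 1 (0.87). Cd81, a close partner of CD9, stood at 18.9 ± 5.73, 29.0 ± 4.52 and 34.2 ± 6.60 FPKM (0.84 at day 28, adjusted p = 0.0414), and Cd82 fell at day 28 (-0.80, adjusted p = 0.0166). Cd63, at 1040 ± 322, 852 ± 118 and 1043 ± 434 FPKM, did not pass (adjusted p = 0.682 and 0.945). At day 1, Tspan13 was lost without any 1 of the PBS or day 1 libraries (adjusted p up to 0.19), and Tspan8 without PBS replicate 0 or 2 or day 1 replicate 0 or 1 (up to 0.133). At day 28 against PBS, Tspan5 was lost without any 1 of the PBS or day 28 libraries (up to 0.14), Cd82 without PBS replicate 0 or 1 or day 28 replicate 2 (up to 0.0819), and Cd81 without PBS replicate 1 or 2, day 1 replicate 0 or 2, or day 28 replicate 0 or 2 (up to 0.151). Without a filter and on single transcript rows, Tspan13, Tspan5 and Cd81 were lost too, Tspan13 also after quantile normalisation and Cd81 in the fit of the 6 libraries (up to 0.0838).

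Among the other genes reported in lipid-associated and scar-associated macrophages, a minority was called against PBS. Of 39 tested, 10 were higher and 0 lower at day 1, and 8 were higher and 0 lower at day 28. The list's median log2 fold changes were -0.16 and -0.07. At an unadjusted p under 0.05 by limma were 18 of the 39 at day 1 and 9 at day 28. Over all 9876 genes these counts were 2502 and 2355. Some fits also called genes of this list lower: at day 1, 1 with the filter of 5 FPKM, 2 with robust eBayes, 3 without PBS replicate 2 and 2 without day 28 replicate 1, and at day 28, 1 without day 28 replicate 1. Between day 28 and day 1, 1 was higher and 3 lower (median -0.0033). Fn1 (fibronectin) went from 10.7 ± 3.79 to 59.6 ± 17.6 and 65.4 ± 11.8 FPKM, and Csf1, the macrophage growth factor, from 2.57 ± 0.276 to 55.3 ± 25.8 and 63.8 ± 30.0 FPKM (SD, n = 3; adjusted p = 0.000151 and 0.000155 at day 1, 0.000354 and 0.000374 at day 28, by limma). Ccl2, a monocyte attractant, rose by 5.61 and 3.95 on the log2 scale, and Pla2g7 by 3.86 and 3.81. Chi3l1 rose by 3.85 at day 1 and 2.52 at day 28, and the latter was lost with transcript rows fitted singly (adjusted p = 1). Lilrb4 rose by 1.73 at day 1 and 3.11 at day 28, the former lost without PBS replicate 1 or 2, any 1 of the day 1 libraries, or day 28 replicate 0 or 2 (adjusted p up to 0.195), and with an added 0.1, no filter, single transcript rows, robust eBayes or the 6 libraries alone (up to 0.0954). Lpl, Fabp4 and Plin2 did not pass against PBS. Lpl, the lipoprotein lipase gene, stood at 195 ± 53.3, 135 ± 20.4 and 135 ± 18.5 FPKM (adjusted p = 0.154 and 0.162), Fabp4, a fatty acid binding protein gene, at 500 ± 387, 315 ± 54.9 and 410 ± 141 FPKM (0.687 and 0.977), and Plin2, which coats lipid droplets, at 427 ± 210, 337 ± 28.2 and 336 ± 61.7 FPKM (0.644 and 0.626). Lgals3 (adjusted p = 0.373 and 0.66) and the complement gene C1qa (0.229 and 0.65), a marker of interstitial macrophages at 1.44 ± 1.04 FPKM in PBS, did not pass either, and Fabp5 was not analysed here. Cstb, a cathepsin inhibitor gene, was higher at day 28 than in PBS (1.16, adjusted p = 0.0153) and than at day 1 (0.86), but both were lost without PBS replicate 1 or day 28 replicate 0 or 2, and the second also without day 1 replicate 1 or 2 (adjusted p up to 0.0748 and 0.164), without a filter and on single transcript rows (up to 0.068). C1qc and Ccl2 were lower at day 28 than at day 1 (-1.66 for both). C1qc was low, at 3.76 ± 2.01 FPKM at day 1 and 0.462 ± 0.401 at day 28. Ccl2 stood at 132 ± 57.0 and 43.9 ± 24.2 FPKM (SD, n = 3). Both calls were lost without day 1 replicate 0 or day 28 replicate 2. The C1qc call was also lost without day 1 replicate 2 or day 28 replicate 0 (adjusted p up to 0.129 by limma). That of Ccl2 was lost without PBS replicate 1, day 1 replicate 1 or day 28 replicate 1 (up to 0.168). Both were also lost without a filter, C1qc after quantile normalisation, and Ccl2 with an added 0.1, the filter of 5 FPKM, single transcript rows and robust eBayes (up to 0.0988). Monocyte, neutrophil and dendritic cell marker sums were higher in the NM libraries than in PBS. For monocytes at day 28 the margin was narrow in replicates 0 and 2 (277 and 276 FPKM, against up to 275 in PBS). The part of these cells in the rises of the listed genes was not tested.

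**Figure D5:**
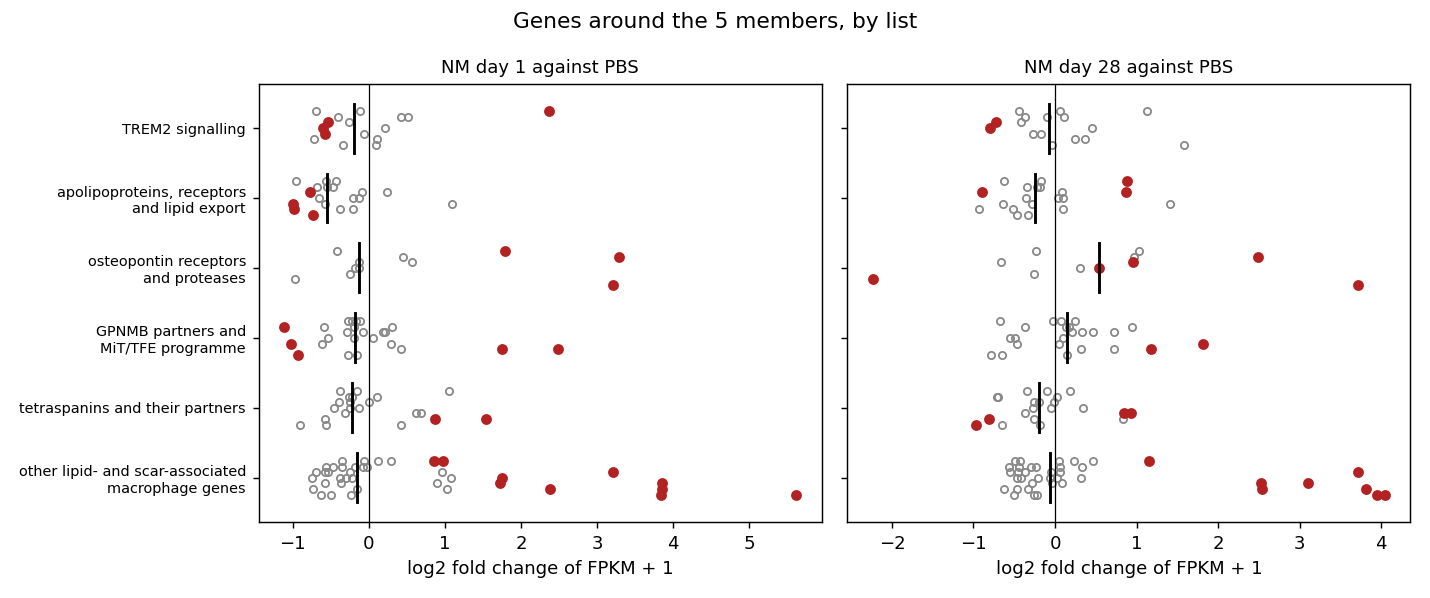
log2 fold change of FPKM + 1 against PBS for the genes of the 6 lists at day 1 (left) and day 28 (right). Filled red points passed an adjusted p under 0.05 by limma, open points did not, and black bars are list medians, which lie between -0.55 and -0.13 at day 1 while single genes such as Mmp12 (3.22 and 3.72) lie far to the right.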

How the data were processed

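Per the submitters' processing notes, TopHat and Cuffdiff were used with the rat build rn4; the labels give no versions, annotation or strand setting. Each of the 9 libraries has deposited FPKM values for 18197 RefSeq transcript rows. Symbols came from a RefSeq gene table (GRCr8), which named 94.4% of rows, and the FPKM of rows with 1 symbol were summed to 17088 genes. The 9876 genes with at least 1 FPKM in at least 3 of 9 libraries were fitted with limma 3.58.1 in R 4.3.3 using a mean per group, a trended eBayes prior and Benjamini-Hochberg adjustment, after log2(FPKM + 1) was taken of the deposited values; the added 1 makes fold changes of low genes smaller. The fit was tested on simulated data with independent normal noise and the same spread in all groups. That test does not cover unequal group spreads or single outlying libraries, as seen for the members. With 3 against 3 libraries an exact permutation test cannot go below 0.1. The members, the lists and the motifs were chosen with earlier results of these data known.

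Genes were named by rule: the members, in each list and comparison the called genes of lowest p, 3 at most, a short set of genes whatever their values, and the 3 genes nearest to each member. Others are marked as chosen after their values were seen. The values of 1 gene counted among the list calls are not reported here. Replicates were numbered 0 to 2 in each group, and their numbers were checked for pairing. The fit was repeated with an added 0.1 or 5 in place of 1, without the filter or with one at 5 FPKM, after quantile normalisation or scaling by median ratios, on single transcript rows, with the replicate number as a block, with robust eBayes, on only the 6 libraries compared, and with each library left out.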

Additional observations from a re-analysis of the deposited data

How the results depend on the processing

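Of 285 refitted values of the members' log2 differences, 283 moved by less than the gene's within-group SD. Leaving out 1 of the 3 libraries of a group cannot move a difference by more than that SD. A changed filter, the replicate block, robust eBayes and the 6 libraries alone leave the differences as they were. The count of 283 is therefore no measure of stability. The other 2 values were Apoe with transcript rows fitted singly (3.25 at day 1 and 6.21 at day 28 against PBS). Left out singly, libraries moved Trem2 between -1.96 and -0.48 for day 1 minus PBS, and between 0.89 and 2.22 for day 28 minus PBS. The Spp1 difference between day 28 and day 1 changed sign without day 1 replicate 2 (-0.01), day 28 replicate 0 (-0.08) or day 28 replicate 2 (-0.20). Counts over all genes also depended on the fit. A filter of 5 FPKM, which tests fewer genes, left 324 genes higher at day 1 than in PBS (from 523) and 408 lower at day 28 than at day 1 (from 680). With only the 6 libraries compared, 230 genes were lower at day 28 than in PBS (from 392). With 1 library left out, so that 2 stood for its group, counts ran from 181 to 657 higher and 55 to 722 lower at day 1, from 155 to 368 higher and 120 to 426 lower at day 28, and from 215 to 631 higher and 299 to 775 lower between the NM groups. The replicate numbers showed no clear pairing of the libraries. Of 9 same-numbered pairs, 3 had deviations correlated above 0.1 (r from -0.10 to 0.20). Other-numbered pairs had r from -0.26 to 0.25, and 7 of 18 best matches were by number. With 3 libraries per group these values cannot exclude a pairing. With the replicate block, 481 genes were higher and 350 lower at day 1, 280 and 352 at day 28, and 414 and 643 between the NM groups, and no member changed sides of the threshold, while 5 calls of named list genes were lost: Akt1, Ptpn6 and Nr1h3 at day 1 (adjusted p = 0.0807, 0.0659 and 0.0504 by limma) and Itga5 and Pltp at day 28 against PBS (0.072 and 0.0583). Over the refits of the named list genes, 189 lost and 49 gained a call, and no called value changed sign. Depth limits low FPKM, and no interval could be given without counts.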
